A study of Mus musculus with 6 samples.

Results

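G protein-coupled receptors are the cell's largest family of surface sensors for chemokines, complement fragments, nucleotides, lipids and hormones. Here they were taken as every gene in the deposited table whose symbol begins with one of the family's usual stems (Gpr followed by a number, Adgr, P2ry, S1pr, Lpar, Ptger, Ptafr, Ccr, Ccrl2, Cxcr, Cx3cr1, C3ar1, C5ar, Fpr, Adora, Hrh or F2r). The stems picked out 70 of the 11644 genes listed. The current annotation holds 164 protein-coding genes of this pattern, of which 69 were listed, and the other member is the pseudogene Gpr137b-ps. Among the 70 are 9 Gpr-numbered proteins of intracellular membranes or of a non-classical fold (Gpr89, Gpr107, Gpr108, Gpr137, Gpr137b, Gpr137b-ps, Gpr137c, Gpr155 and Gpr180), which are described separately.

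The cells were mouse leukemia cells named for the MLL-ENL fusion and NrasG12D, grown in RPMI-1640 with serum. MLL-ENL joins the chromatin regulator MLL to a transcription elongation factor, and NrasG12D is a constitutively active Ras. Cells of 3 libraries received the solvent DMSO and cells of the other 3 received 5 µM EPZ 015666, an inhibitor of the arginine methyltransferase PRMT5, in the same solvent. Both groups carried both oncogenes, were treated again on day 2 and gave polyA RNA after 72 h, so the contrast compares inhibitor with solvent in a single leukemia model and includes no untransformed cells, no second dose and no other compound. The series text calls the replicates independent without saying what was repeated, so the p-values measure the spread between these libraries, which may be partly technical.

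A G protein-coupled receptor crosses the membrane as a bundle of helices and, when its ligand binds, switches on a heterotrimeric G protein inside the cell. Gi-coupled chemokine and chemoattractant receptors steer migration of myeloid cells through phosphoinositide 3-kinase gamma and phospholipase C beta, and Gs-coupled receptors raise cyclic AMP. Receptor kinases and arrestins end the signal and take the receptor inside. Monocytes and macrophages are known for high levels of Ccr2, Cx3cr1, the complement receptors and Adgre1 (F4/80), while progenitor cells depend on Cxcr4 for retention in the bone marrow.

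Each library held between 11335948 and 19197912 reads in genes, and 1 read was worth between 0.807 and 1.40 normalized counts. Libraries of a group correlated at r of 0.987 to 0.992 and libraries of different groups at 0.951 to 0.962 across genes, on the log2(normalized count + 1) scale. DMSO library 2 stood apart from the other DMSO libraries: the second principal component, with 8.97% of the variance, placed it at −29.2 and DMSO libraries 1 and 3 at 13.5 and 12.3. Results that rest on that library are given with and without it. All 8 markers of the myeloid leukemia cell listed for the check (Ptprc, Itgam, Kit, Cd34, Mpo, Csf1r, Cd33 and Spi1) were in the table, with summed normalized counts of 22254 to 24589 in DMSO and 34195 to 35655 with inhibitor. Of these, 5 were higher with inhibitor, Mpo was lower, and Ptprc and Kit were not called. Without DMSO library 2, Kit was called lower (limma adjusted p 0.00793) and Spi1 lost its call (0.082). The Spi1 call was kept in 1 of the 6 fits that left out 1 library. The Mpo groups overlapped, and the Mpo call was kept in 3 of those fits. Markers of other blood lineages were low: 1 of 7 T cell genes (Lck), 1 of 5 B cell genes (Cd79b) and 0 of 4 erythroid genes were listed. Of 5 mast cell, basophil and eosinophil genes, 2 were listed (Mcpt8 and Siglecf), both lower with inhibitor, with sums of 112 to 138 in DMSO and 60.3 to 80.7 with inhibitor. Of 5 stromal and endothelial genes 3 were listed, with nearly all of the sum from Pecam1 (means 3240 and 3801, not called), which blood cells also express.

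With inhibitor, the members that rose most on the log2 scale were the protease-activated receptor gene F2rl2, the complement receptor C5ar1, the formyl peptide receptor Fpr2, the nucleotide receptor P2ry1, the adenosine receptor Adora2b and the complement receptor C3ar1, with log2 differences from 2.70 to 4.37. The chemokine receptors Cx3cr1 and Ccr2 rose by less, 1.20 and 0.72. The members that fell most were the adhesion receptors Adgrl1 and Adgre5, the sphingosine 1-phosphate receptor S1pr3, the lysophosphatidic acid receptor Lpar5 and the chemokine receptors Ccr6 and Cxcr4, with log2 differences from −2.44 to −1.03. By the limma test on log2(normalized count + 1), with Benjamini-Hochberg adjustment over all 11644 genes and a threshold of 0.05, 34 members were higher, 13 were lower and 23 were not called. Over all genes, the share called higher was 23.6% and the share called lower was 22.9%, against 48.6% and 18.6% of the members. With a change of at least 2-fold on that scale, 22 members were higher and 6 lower, beside shares of 7.16% and 3.04% over all genes (28 of the members and 10.2% of all genes in either direction). Every inhibitor library lay above every DMSO library for 34 members and below for 17, beside 28.2% and 27.9% of all genes. On the recovered reads, edgeR called 32 members higher and 15 lower, beside 22.3% and 24.2% of all genes. Without inhibitor library 2, the least deeply sequenced, the count of members at least 2-fold higher was 14 and that of members at least 2-fold lower was 5. Over all genes that fit gave 748 at least 2-fold higher and 327 at least 2-fold lower, against 834 and 354 with every library. The median log2 difference was 0.45 over the members and 0.00 over all genes. In bulk RNA, a change in the share of cells that carry a receptor and a change in its RNA per cell cannot be told apart.

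These shares depend on how low the members are. A total of 7 members (Ccr1l1, F2rl2, Fpr2, Gpr137c, Gpr153, Gpr162 and Gpr55) reached 10 reads, the minimum of the table's genes in their highest library, only in the inhibitor group, and all 7 were called higher. Another 3 (Adgre5, Ccr10 and P2ry10) reached it only in DMSO, and 1 of these, Adgre5, was called lower. Such genes could hardly be called in the other direction, and the 60 members that reached 10 reads in both groups gave 27 higher and 12 lower. Of the 11081 genes of the table that did so, 22.8% were higher and 23.6% lower. Among the 37 members with a mean of at least 100 normalized counts over the 6 libraries, 16 were higher and 9 lower, with a median log2 difference of 0.28. The genes of that level numbered 9100, with 22.9% higher, 25.9% lower and a median of −0.02. Leaving out any 1 library gave 14 to 16 higher and 8 to 10 lower among those 37.

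**Figure D1:**
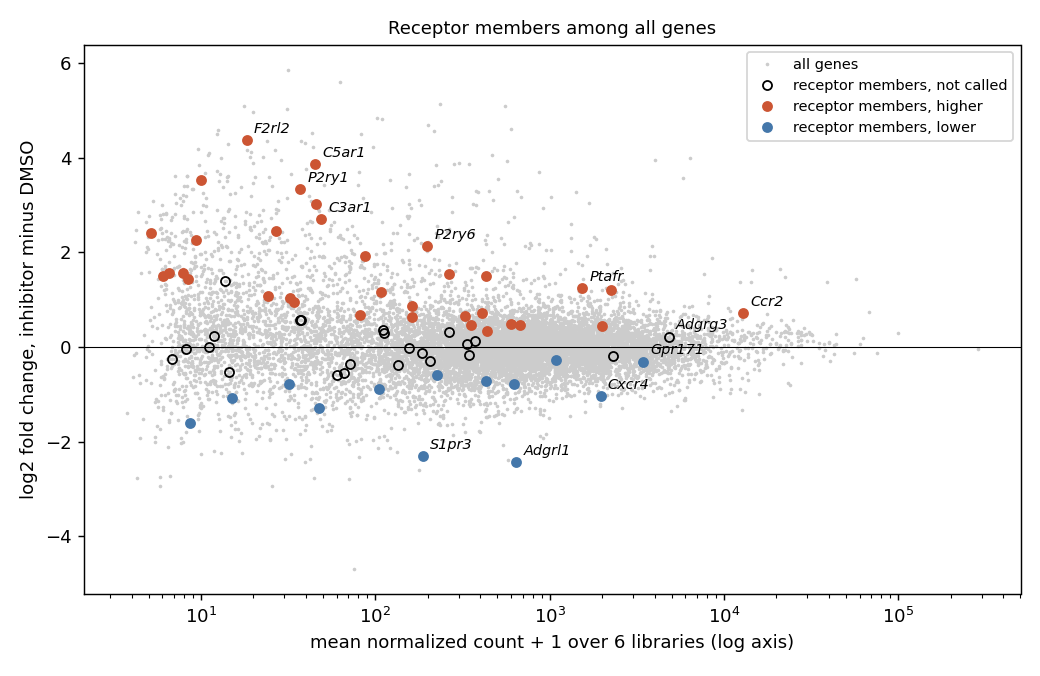
Log2 difference (inhibitor minus DMSO) against the mean normalized count + 1 over the 6 libraries (log axis) for all 11644 genes, with the 70 receptor members as larger points in red (higher, 34), blue (lower, 13) or open (not called, 23). F2rl2, C5ar1 and P2ry1 are among the highest members, at low means, and Adgrl1 and S1pr3 are the lowest members at their means.

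Promoter sequences from RefSeq (GRCm38.p6) are shown for 5 members, as examples chosen after their values were seen: C3ar1 and F2rl2 among the members at least 2-fold higher and Adgrl1, S1pr3 and Cxcr4 among those at least 2-fold lower. Each line gives the bases before the RefSeq start, 5′ to 3′ on the gene's strand, up to 250, without those inside the annotated gene. Capitals mark matches, on either strand, to 7 motifs searched: the ETS sequence of the PU.1 class GAGGAAG, the C/EBP sequence TTGCNNAA, the E-box CACGTG, the AP-1 sequence TGANTCA, the RUNX sequence TGTGGT, the TATA box TATAAA and the CCAAT box CCAAT.
C3ar1, chr6:122856162-122856407, minus strand: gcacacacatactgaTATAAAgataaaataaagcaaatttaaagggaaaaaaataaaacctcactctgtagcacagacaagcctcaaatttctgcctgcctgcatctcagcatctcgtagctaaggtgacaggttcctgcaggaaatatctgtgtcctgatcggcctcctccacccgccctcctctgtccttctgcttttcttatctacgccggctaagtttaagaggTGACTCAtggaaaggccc
F2rl2, chr13:95696670-95696852, plus strand: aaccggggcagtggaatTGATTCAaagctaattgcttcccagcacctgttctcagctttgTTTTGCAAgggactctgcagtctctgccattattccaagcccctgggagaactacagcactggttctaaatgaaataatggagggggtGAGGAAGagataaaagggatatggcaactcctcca
Adgrl1, chr8:83899848-83900097, plus strand: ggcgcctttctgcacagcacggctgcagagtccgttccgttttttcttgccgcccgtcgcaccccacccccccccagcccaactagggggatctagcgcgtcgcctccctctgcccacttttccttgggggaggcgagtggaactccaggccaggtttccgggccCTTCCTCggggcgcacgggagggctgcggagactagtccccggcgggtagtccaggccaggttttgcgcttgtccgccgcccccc
S1pr3, chr13:51408368-51408617, plus strand: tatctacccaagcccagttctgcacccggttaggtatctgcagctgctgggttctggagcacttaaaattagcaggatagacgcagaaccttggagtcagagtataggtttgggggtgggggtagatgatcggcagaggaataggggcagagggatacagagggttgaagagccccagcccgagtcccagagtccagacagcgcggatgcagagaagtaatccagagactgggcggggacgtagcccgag
Cxcr4, chr1:128592300-128592549, minus strand: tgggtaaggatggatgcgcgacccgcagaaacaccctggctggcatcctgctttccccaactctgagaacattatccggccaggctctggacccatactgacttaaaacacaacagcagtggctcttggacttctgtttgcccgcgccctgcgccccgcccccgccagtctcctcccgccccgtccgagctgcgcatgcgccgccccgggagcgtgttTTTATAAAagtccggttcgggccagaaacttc

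The stretch printed for C3ar1 held 5 CG pairs, that of F2rl2 held 1, and those of Adgrl1, S1pr3 and Cxcr4 held 21, 9 and 19. Their full windows of 300 bases, which run past the start, held 5, 2, 28, 14 and 20 in the same order. These examples do not stand for the members. Windows of members at least 2-fold higher held from 1 (Fpr2) to 42 CG pairs (Gpr153). Those of members at least 2-fold lower held from 2 (Ccr6) to 28 (Adgrl1). C3ar1 had an AP-1 match 22 bases before its start and a TATA match 235 bases before it. F2rl2 had an AP-1 match at 233 bases, a C/EBP match at 190 and an ETS match at 102 bases before its start. Another AP-1 match of F2rl2, 54 bases before its start, lay inside the annotated gene and so among the bases not printed. Adgrl1 had 1 ETS match, on the opposite strand, 85 bases before its start, and Cxcr4 had a TATA match on each strand, overlapping, at 32 and 30 bases. No motif of the 7 was found in the letters printed for S1pr3. Of all 32851 RefSeq windows of 300 bases, 7.81% held the AP-1 sequence, 13.6% the ETS sequence, 10.8% the C/EBP sequence and 13.6% the TATA box, and 43.5% held at least 10 CG pairs. Windows were given for 55 of the 70 members (78.6%), under the 80% needed, so a comparison of motifs over the members was void. A match is a description of the letters and not a site.

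The receptors for complement fragments, formyl peptides and platelet-activating factor draw phagocytes to infection. All 4 listed were higher, beside 23.6% of all genes, and all 4 calls held with any 1 library left out. Among these, Fpr2 reached the table's read minimum only with inhibitor. It could hardly have been called lower, so its call adds little to that count. C5ar1 (chr7:16246743-16259540, minus strand, GENCODE M21, mm10), the receptor for the complement fragment C5a, had 3.26, 8.07 and 3.93 normalized counts in DMSO libraries 1 to 3 and 97.0, 71.3 and 80.7 with inhibitor. Its inhibitor mean was 16.3-fold higher, with a log2 difference of 3.86 ± 0.33 (SE) and a limma adjusted p of 4.1e-06, although the DMSO level rested on 18 reads. The C3a receptor C3ar1 (chr6:122847138-122856161, minus strand) had 10.6, 13.7 and 11.8 in DMSO and 69.5, 101 and 81.8 with inhibitor. That is 6.98-fold higher, a log2 difference of 2.70 ± 0.24 with a limma adjusted p of 5.34e-06. For both complement receptors the lowest inhibitor library lay several-fold above the highest DMSO library.

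Ptafr, the platelet-activating factor receptor, had the highest counts of the 4, at 651, 1408 and 782 normalized counts in DMSO and 2086, 2181 and 2071 with inhibitor. The inhibitor libraries were close together and the DMSO libraries were not, because DMSO library 2 stood well above the other DMSO libraries. The log2 difference was 1.24 ± 0.21 with a limma adjusted p of 0.00056, and 1.57 with an adjusted p of 1.5e-08 without DMSO library 2. Fpr2, a formyl peptide receptor that also binds annexin A1, had 2 reads over the DMSO libraries and 44 over the inhibitor libraries. Fpr2 was thus in the table through its inhibitor libraries alone. The ratio of its depth-scaled reads was 29.2, with a 95% exact interval of 7.62 to 249 that covers counting error only, and the limma adjusted p was 0.000315.

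Of the 11 chemokine receptors, 5 were higher (45.5%), 2 were lower (18.2%) and 4 were not called, with a median log2 difference of 0.43. The shares over all genes were 23.6% higher and 22.9% lower. Ccr2, the receptor by which monocytes follow Ccl2, had the highest counts of any member, at 11480, 8151 and 9645 in DMSO and 15698, 16784 and 15232 with inhibitor. It rose 1.63-fold (log2 difference 0.72 ± 0.12, limma adjusted p 0.000654). Cx3cr1, the fractalkine receptor of monocytes and microglia, had 1600, 1153 and 1323 in DMSO and 3401, 3155 and 2786 with inhibitor, 2.29-fold higher (1.20 ± 0.12, limma adjusted p 1.21e-05). For both receptors every inhibitor library lay above every DMSO library.

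Ccr1, a receptor for Ccl3 and Ccl9, had 1862, 1625 and 1574 in DMSO and 2060, 2495 and 2290 with inhibitor (0.43 ± 0.10, limma adjusted p 0.00307). The neighbouring Ccr1l1 was low, with means of 2.39 and 8.69 and a limma adjusted p of 0.0281. That call was lost with 4 of the 6 libraries left out in turn. Ccr1l1 reached the table's read minimum only with inhibitor, so its call adds little to the family's count. The handling of reads shared between such close paralogs is not given in the sources used here.

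Cxcr4 (chr1:128588199-128592293, minus strand), the Cxcl12 receptor that holds progenitors in the marrow niche, went the other way, from 3036, 2267 and 2604 in DMSO to 1237, 1284 and 1312. The groups did not overlap and the inhibitor mean was 2.06-fold lower (log2 difference −1.03 ± 0.10, limma adjusted p 1.28e-05). Ccr6, the Ccl20 receptor, fell from a mean of 19.4 to 8.84 (limma adjusted p 0.0254), a call lost without DMSO library 3 or inhibitor library 2, where Cxcr4 was the only chemokine receptor called lower. Not called were Cxcr2, the neutrophil receptor, with means of 150 and 118 (95% interval of the log2 difference −0.81 to 0.04), Ccr7 with 100 and 121 (−0.08 to 0.65), Ccr10 with 6.52 and 5.13, and the decoy-like Ccrl2 with 29.8 and 43.0. Without inhibitor library 3, Cxcr2 was called lower as well. Ccrl2 was at 46.8 in DMSO library 2 against 22.8 and 19.6 in the other DMSO libraries, and without that library it passed the limma test (adjusted p 0.0213).

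**Figure D2:**
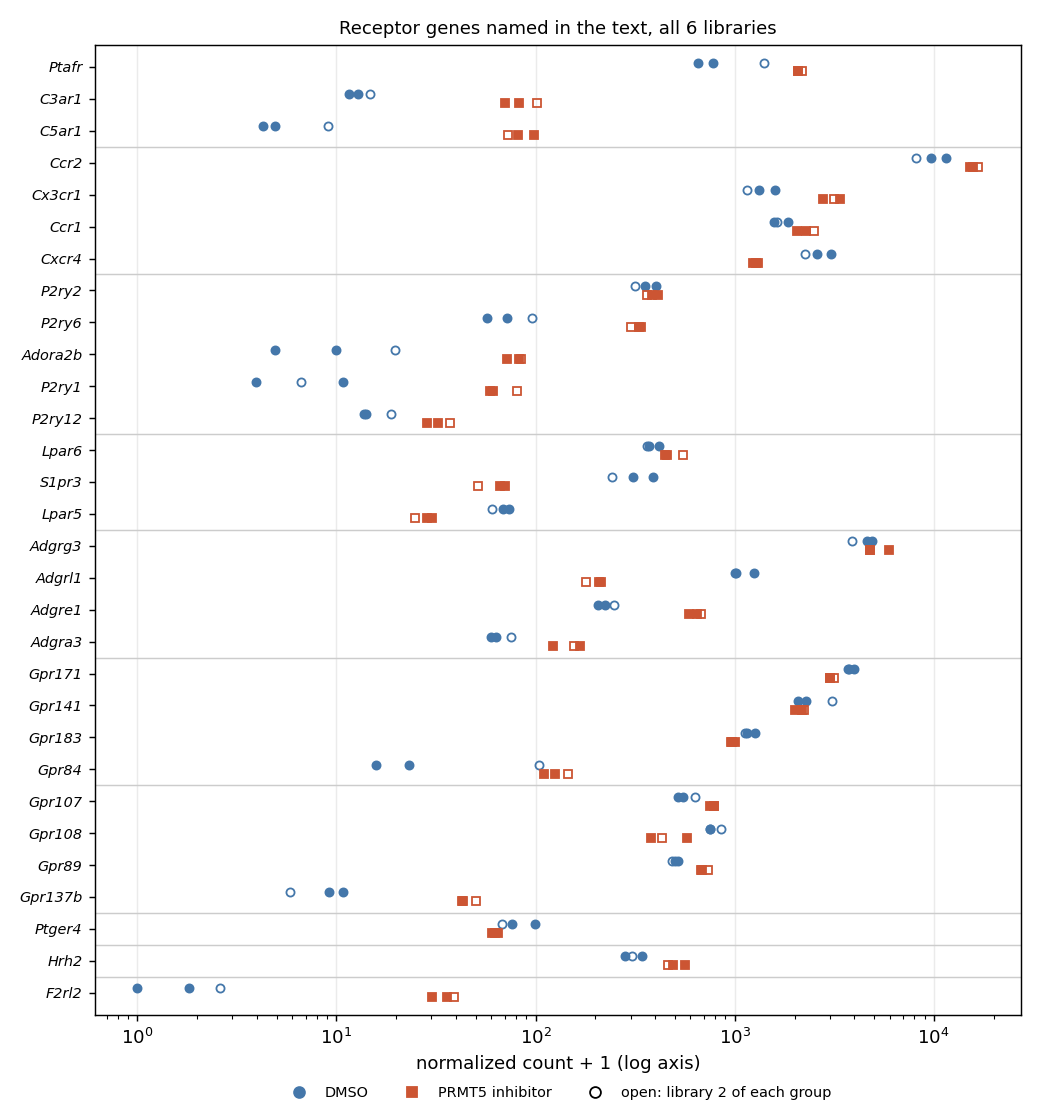
Normalized counts (log axis, value + 1) of receptor members in each of the 3 DMSO and 3 inhibitor libraries, 1 point per library, DMSO as circles, inhibitor as squares and library 2 of each group as open symbols. The inhibitor libraries lie above the DMSO libraries for C5ar1, C3ar1 and P2ry6 and below them for Adgrl1, S1pr3 and Cxcr4, and DMSO library 2 lies near the inhibitor libraries for Gpr84.

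Among the 8 receptors for nucleotides and adenosine, which sense extracellular nucleotides, nucleotide sugars or adenosine, 5 were higher (62.5%), none was lower and 3 were not called by limma. None was lower at an unadjusted p under 0.05 or by edgeR either. The limma shares over all genes were 23.6% higher and 22.9% lower. P2ry6, the UDP receptor of macrophages, had 56.3, 95.3 and 70.7 in DMSO and 329, 301 and 336 with inhibitor, a 4.34-fold increase (log2 difference 2.14 ± 0.18, limma adjusted p 3.21e-06). P2ry1, an ADP receptor, had 9.78, 5.65 and 2.95 in DMSO, 22 reads in all, and 58.2, 79.7 and 60.3 with inhibitor (3.34 ± 0.37, limma adjusted p 2.64e-05). Adora2b, the low-affinity adenosine receptor that couples to Gs, had 8.97, 18.6 and 3.93 in DMSO and 70.5, 83.9 and 81.8 with inhibitor (3.01 ± 0.41, limma adjusted p 0.000121). All 3 receptors were low in every DMSO library and separate from it in every inhibitor library.

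P2ry12, the ADP receptor of platelets and microglia, had 13.0, 17.8 and 12.8 in DMSO and 27.6, 36.4 and 31.2 with inhibitor (1.08 ± 0.27, limma adjusted p 0.00687). P2ry14, a UDP-glucose receptor, rose from a mean of 62.2 to 100 (limma adjusted p 0.0101). P2ry2, a receptor for ATP and UTP with the highest counts of the family, had 401, 313 and 353 in DMSO and 412, 364 and 382 with inhibitor, and the 95% interval of its log2 difference was −0.13 to 0.37 (limma adjusted p 0.404). P2ry13 had means of 96.8 and 123 (limma adjusted p 0.103, and 0.018 without DMSO library 2), and P2ry10 had 7.37 and 6.99. P2ry1, P2ry12 and the protease receptor below are known from platelets. Of 4 megakaryocyte and platelet markers, Pf4 and Ppbp were not listed and Itga2b was called higher (means 6.79 and 29.8). Gp9 was not called (6.67 and 16.2, limma adjusted p 0.0727, and 0.0423 without DMSO library 2). The summed level of these markers was 9.78 to 17.7 in DMSO and 32.7 to 54.5 with inhibitor, and their part in the result was not tested.

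F2rl2 (chr13:95696853-95702739, plus strand), which encodes the protease-activated receptor PAR3, a thrombin cofactor, had 0.815, 1.61 and 0 normalized counts in DMSO, 3 reads in all. With inhibitor it had 34.7, 37.8 and 29.1, or 88 reads, and every inhibitor library was far above every DMSO library. F2rl2 reached the table's read minimum only with inhibitor and could hardly have been called lower. The ratio of depth-scaled reads was 39.0 (95% exact interval 12.9 to 193), and the limma test gave a log2 difference of 4.37 ± 0.48 and an adjusted p of 2.47e-05. The gene lies inside Iqgap2 on the opposite strand, and Iqgap2 fell from a mean of 4185 to 2994. The libraries were made with a stranded kit, and the strand setting of the counting is not given in the sources used here.

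The 8 receptors for lysophospholipids bind sphingosine 1-phosphate or lysophosphatidic acid and guide cells between tissue and blood. Of these, 2 were lower (25%), 1 was higher (12.5%) and 5 were not called. Over all genes, 22.9% were lower and 23.6% higher. S1pr3 (chr13:51408639-51422797, plus strand) had 387, 241 and 307 in DMSO and 65.4, 50.3 and 68.9 with inhibitor. It fell 5.07-fold (log2 difference −2.31 ± 0.19, limma adjusted p 2.84e-06), and the highest inhibitor library was far below the lowest DMSO library. Its paralog S1pr2 had 351, 412 and 328 in DMSO and 310, 343 and 316 with inhibitor, with a 95% interval of −0.41 to 0.08. S1pr4 had means of 29.0 and 43.4 (limma adjusted p 0.0942). S1pr1, the receptor for lymphocyte exit, had 1.63, 14.5 and 6.87 in DMSO and 18.4, 11.2 and 23.7 with inhibitor (limma adjusted p 0.0681, and 0.00681 without DMSO library 2).

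Of the lysophosphatidic acid receptors, Lpar5 had 72.6, 59.7 and 67.7 in DMSO and 27.6, 23.8 and 29.1 with inhibitor, a 2.49-fold decrease without overlap (log2 difference −1.28 ± 0.20, limma adjusted p 0.000356). Lpar6, with the highest counts of the family, had 417, 362 and 371 in DMSO and 446, 551 and 457 with inhibitor (0.33 ± 0.11, limma adjusted p 0.0265). The Lpar6 call was lost without DMSO library 2 (0.0602), DMSO library 3 (0.08) or inhibitor library 2 (0.133), which left no lysophospholipid receptor called higher in the last case. Lpar2 had means of 236 and 290 (limma adjusted p 0.0522), and Lpar1 had 158 and 152 with an interval of −0.42 to 0.40.

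Adhesion receptors carry long extracellular domains that bind matrix or neighbouring cells and are cut by an autoproteolytic domain. Of 7 listed, 3 were higher (42.9%), 2 lower (28.6%) and 2 not called, beside 23.6% higher and 22.9% lower over all genes. Adgrl1 (chr8:83900105-83941954, plus strand), the latrophilin that binds teneurins, had 1016, 1002 and 1247 in DMSO and 206, 179 and 212 with inhibitor. It fell 5.47-fold (log2 difference −2.44 ± 0.11, limma adjusted p 4.4e-08), the lowest adjusted p of the 70 members. Its paralog Adgrl2 was at 0 and 0.982 in DMSO libraries 1 and 3, at 10.5 in DMSO library 2, and at 12.3, 18.2 and 8.61 with inhibitor. The Adgrl2 groups overlapped, and its call (limma adjusted p 0.0326) held with DMSO library 2 left out and was lost with any other library left out, which gave 2 adhesion receptors called higher.

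Adgre1, which encodes the macrophage antigen F4/80, had 223, 246 and 204 in DMSO and 591, 677 and 645 with inhibitor, 2.84-fold higher (1.50 ± 0.11, limma adjusted p 1.07e-06). Adgra3 had 62.0, 74.3 and 58.9 in DMSO and 122, 155 and 166 with inhibitor (1.16 ± 0.17, limma adjusted p 0.000211). Adgre5, the CD97 antigen, fell from a mean of 11.9 to 3.41 (limma adjusted p 0.0139), with 42 reads in DMSO and 9 with inhibitor. Adgre5 reached the table's read minimum only in DMSO and could hardly have been called higher, so its call adds little to the family's count. The adhesion receptor with the highest counts, Adgrg3, known from granulocytes as GPR97, had 4638, 3893 and 4880 in DMSO and 4808, 4788 and 5982 with inhibitor, with a 95% interval of −0.03 to 0.46 (limma adjusted p 0.14). Adgrg1, its neighbour on chromosome 8, had means of 195 and 175 (limma adjusted p 0.577).

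Hrh2, the Gs-coupled histamine receptor of myeloid cells, had 280, 304 and 343 in DMSO and 488, 461 and 562 with inhibitor, 1.63-fold higher (log2 difference 0.71 ± 0.11, limma adjusted p 0.000414). It was the only histamine receptor listed. Of the prostaglandin E receptors, Ptger4 had 98.7, 67.0 and 75.6 in DMSO and 59.2, 61.5 and 63.5 with inhibitor. Its groups did not overlap, but the difference did not pass the limma test (adjusted p 0.125), and Ptger1 had means of 10.1 and 10.3.

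The 19 Gpr-numbered receptors, many of them without a settled ligand, gave 9 higher (47.4%), 4 lower (21.1%) and 6 not called. Over all genes the shares were 23.6% and 22.9%. Among the 9 higher, Gpr153, Gpr162 and Gpr55 reached the table's read minimum only with inhibitor. They could hardly have been called lower, so their calls add little to the count. The count of 9 higher was 3 without inhibitor library 2, and 6 without DMSO library 1, DMSO library 3 or inhibitor library 3. Gpr84, a receptor for medium-chain fatty acids on activated myeloid cells, had 22.0, 103 and 14.7 in DMSO and 109, 144 and 125 with inhibitor. DMSO library 2 lay just under the inhibitor libraries while the other DMSO libraries were far below them. The log2 difference was 1.91 ± 0.52 (limma adjusted p 0.00982), 2.73 without DMSO library 2 (3.06e-07) and 1.81 without inhibitor library 2, where the call was lost (0.0501).

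Gpr171 had 3966, 3770 and 3699 in DMSO and 3026, 3170 and 3011 with inhibitor, a 1.24-fold decrease without overlap (−0.31 ± 0.08, limma adjusted p 0.00573). Gpr183, the oxysterol receptor EBI2, had 1269, 1122 and 1160 in DMSO and 1008, 966 and 962 with inhibitor (−0.27 ± 0.08, limma adjusted p 0.0171). That call was lost without DMSO library 1 (0.0837) or inhibitor library 2 (0.0613). Gpr141 had 2079, 3081 and 2289 in DMSO and 2016, 2223 and 2185 with inhibitor, and was not called (limma adjusted p 0.225). Gpr146 fell from a mean of 536 to 324 and Gpr19 from 136 to 72.9.

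The lysophosphatidylserine receptors Gpr174 and Gpr34 rose from means of 253 to 402 and 126 to 196, with limma adjusted p of 0.000886 and 0.028. The Gpr34 groups overlapped, and its call was kept in only 2 of the 6 fits that left out 1 library. Gpr132, a sensor of oxidized lipids, rose from a mean of 296 to 405 and Gpr18 from 21.9 to 44.4. Gpr55 had 3 reads in DMSO and 20 with inhibitor, a depth-scaled ratio of 8.85 with an exact interval of 2.63 to 46.5. Gpr65, a proton sensor, had means of 71.4 and 47.0 without overlap of the groups and missed the threshold (limma adjusted p 0.0505). It was called lower by edgeR (adjusted p 0.0415) and by limma without DMSO library 2 (0.0404). Of the 6 fits that left out 1 library, 3 kept it not called.

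The 9 Gpr-numbered proteins that sit in intracellular membranes or lack the classical fold gave 5 higher (55.6%), 3 lower (33.3%) and 1 not called. Over all genes the shares were 23.6% and 22.9%. Among the 5 higher, Gpr137c reached the table's read minimum only with inhibitor and could hardly have been called lower. Gpr108, of the Golgi, had 754, 851 and 755 in DMSO and 380, 429 and 576 with inhibitor, 1.70-fold lower (log2 difference −0.79 ± 0.14, limma adjusted p 0.000651). Its close relative Gpr107 had 551, 632 and 518 in DMSO and 753, 786 and 791 with inhibitor (0.46 ± 0.09, limma adjusted p 0.00211). The groups did not overlap for either, in opposite directions. Gpr89, a Golgi anion channel, had 518, 484 and 503 in DMSO and 680, 733 and 689 with inhibitor (0.48 ± 0.09, limma adjusted p 0.000795). Gpr137b, of the lysosome, had 8.15, 4.84 and 9.82 in DMSO and 41.9, 48.9 and 42.0 with inhibitor (2.44 ± 0.31, limma adjusted p 8.09e-05). Its pseudogene Gpr137b-ps had means of 115 and 210, and because reads can be split between the copies both values are uncertain. Gpr137 fell from a mean of 267 to 180.

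**Figure D3:**
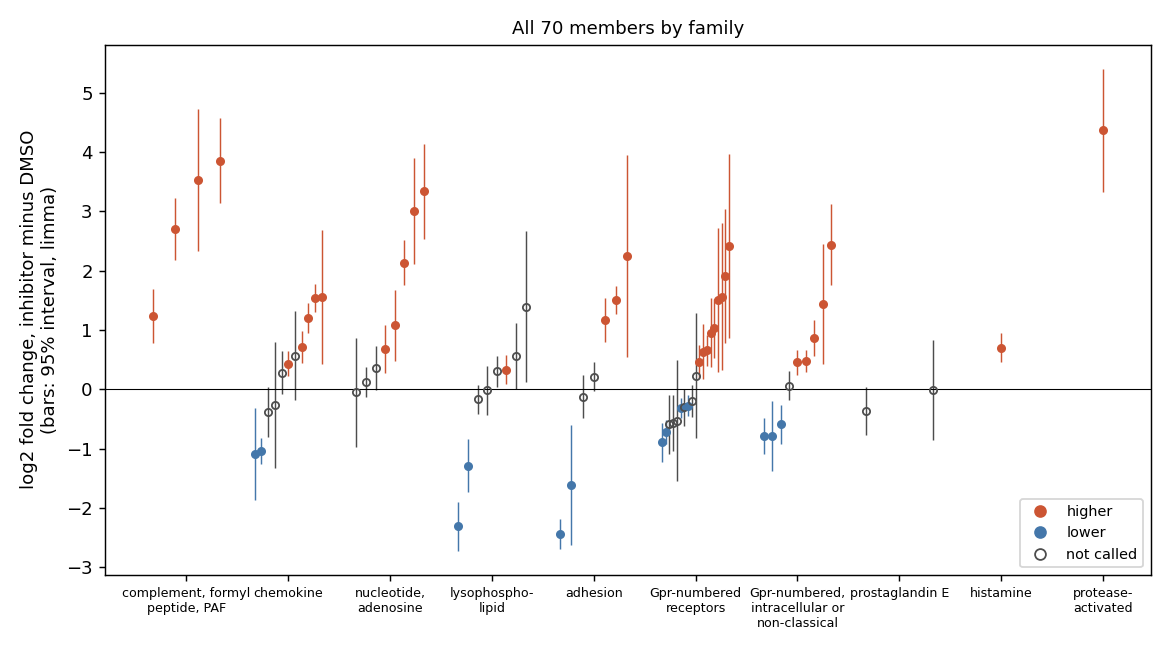
Log2 difference (inhibitor minus DMSO) of each of the 70 members, grouped by family and ordered within it, with 95% intervals from limma as bars. Red points are called higher, blue lower and open points not called. The 4 complement, formyl peptide and platelet-activating factor receptors are all red, and S1pr3, Lpar5 and Adgrl1 are among the blue points below −1.

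Divided by the exon length of each gene, levels can be set beside each other. In DMSO the highest were Gpr171 at 1713 normalized counts per kb of exon, Cxcr4 at 1458 and Ccr2 at 1444, followed by Adgrg3 at 647, Ccr1 at 595 and Gpr141 at 416. With inhibitor the order was Ccr2 at 2353, Gpr171 at 1379, Ccr1 at 805, Adgrg3 at 752, Cxcr4 at 707 and Cx3cr1 at 691. In DMSO the libraries of Cxcr4 and Ccr2 spanned ranges wider than the gap between these means. Of the 10 highest members per kb, 9 were the same in both groups: Gpr108 was among them only in DMSO and Adgre1 only with inhibitor. Exon lengths come from the annotation and not from the transcripts these cells used.

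**Figure D4:**
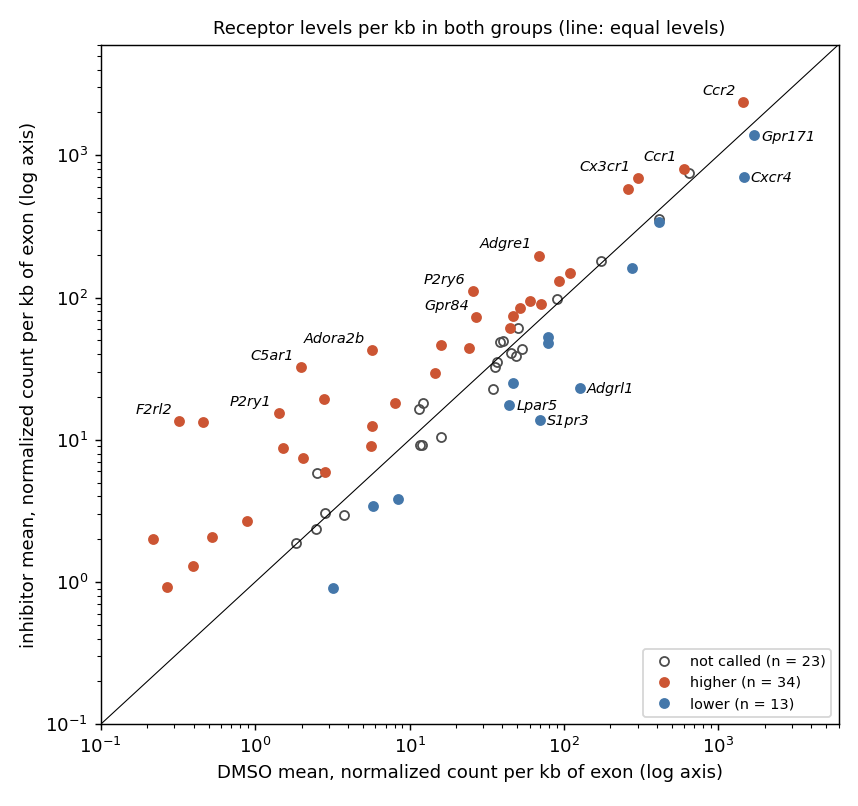
Mean level of each member with inhibitor against that in DMSO, in normalized counts per kb of exon (both axes log), with a line at equal levels. Ccr2 lies above the line and Cxcr4 and Gpr171 below it at the top of the range, while F2rl2, Fpr2 (unlabelled, beside F2rl2), C5ar1 and P2ry1 lie farthest above the line, at low DMSO levels.

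Several members lie side by side in the genome, and 21 of the 70 fell into 8 clusters with gaps of at most 200 kb. On chromosome 9 the neighbours Ccr1 and Ccr2 were called higher, with log2 differences of 0.43 and 0.72. Ccr1l1, which lies between them, was called higher as well (1.55), but it reached the table's read minimum only with inhibitor. Its call was kept in 2 of the 6 fits that left out 1 library. On chr3:59096448-59262871, Gpr171 was lower, P2ry12 and P2ry14 were higher and P2ry13 was not called. All 4 overlap Med12l on the opposite strand, whose means were 532 and 530. On chr7:100937630-101012866, P2ry6 rose and its neighbour P2ry2 was not called. On chr17:57234635-57483527, Gpr108 fell and Adgre1 rose. Neighbours on chr14:121911253-121965195 also went apart, with Gpr18 higher and Gpr183 lower, but both calls were lost without inhibitor library 2 (limma adjusted p 0.0702 and 0.0613). In all, 19 members overlap another gene of the table, and 19 of the 22 overlapping pairs are on opposite strands. For Cx3cr1, the annotated span covers Wdr48, Gorasp1 and Csrnp1, all of them lower with inhibitor.

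Many of these receptors are encoded without introns in their coding sequence. Of the 69 members with a coding sequence, 36 (52.2%) had 1 coding exon, against 606 of 10635 annotated genes of the table (5.70%). Among those 36, 18 were higher and 6 lower (median log2 difference 0.56), and among the 33 with more coding exons 15 were higher and 7 lower (0.28). All 606 genes with 1 coding exon gave 147 higher, 154 lower and a median of −0.03.

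Genes of the machinery around the receptors were taken from 7 lists. Of 133 that the table held out of 230 sought, 43 were higher (32.3%), 17 lower (12.8%) and 73 not called, beside 23.6% and 22.9% over all genes, with a median log2 difference of 0.10. Of 20 G protein subunits, 5 were higher (25%) and 3 lower (15%), shares that say nothing particular to the list beside those over all genes (median 0.06). Gng11, a gamma subunit, rose from a mean of 26.0 to 95.2 (limma adjusted p 1.92e-05) and Gnb5, a beta subunit that pairs with RGS proteins, from 11.9 to 32.1. Gnas, the alpha subunit of Gs with the highest counts of the list, fell from 8260 to 5607 (limma adjusted p 0.000279), and Gng2 fell from 609 to 462. The count of 5 higher was 2 without DMSO library 3 and 3 without inhibitor library 1 or 2.

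Of 14 regulators of G protein signalling, which speed GTP hydrolysis or bind free alpha subunits, 4 were higher (28.6%, beside 23.6% over all genes) and none was lower by limma, at an unadjusted p under 0.05 or by edgeR. Rgs18 rose from a mean of 793 to 1275, Rgs12 from 546 to 855, Rgs10 from 1057 to 1506 and Gpsm2 from 145 to 213, and the count of 4 was 7 without DMSO library 2. Ric8, with the highest counts, had means of 1730 and 1645 and was not called. Of 12 receptor kinases and arrestins, 2 were higher and 2 lower (16.7% each, beside 23.6% and 22.9% over all genes). The arrestins parted: Arrb1 fell from a mean of 945 to 595 (limma adjusted p 0.000165) and Arrb2 rose from 1355 to 1728 (0.00728). Grk6 fell from 3922 to 2715, while Adrbk1, which encodes the kinase GRK2, had 5987 and 5775 and was not called. Arrdc3 rose from 215 to 301, a call lost without DMSO library 1, DMSO library 3 or inhibitor library 2.

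Of 21 genes of the cyclic AMP pathway, 4 were higher (19.0%) and 3 lower (14.3%), both under the shares over all genes, 23.6% and 22.9%. The count of 3 lower was 1 without inhibitor library 2. Among the 4 higher, Adcy2 reached the table's read minimum only with inhibitor. The phosphodiesterase Pde8a rose from a mean of 25.5 to 129 (limma adjusted p 4.98e-06), the cyclic AMP-responsive factor Crem from 109 to 238 and the adenylyl cyclase Adcy9 from 173 to 281. Pde4d fell from 293 to 195, and Adcy7, with the highest counts, had 4174 and 3727 and was not called. Of 17 genes of the phospholipase C and phosphoinositide 3-kinase branches, exchange factors for small GTPases included, 5 were higher and 5 lower (29.4% each). Those shares are near the ones over all genes and say nothing particular to the list. Pik3r5, the p101 adaptor that links phosphoinositide 3-kinase gamma to G protein beta-gamma subunits, rose from 311 to 920 (limma adjusted p 2.35e-07) and Pik3cb from 739 to 1182. Rasgrp2 fell from 582 to 299 and Plcb3 from 722 to 460. Dock2, with the highest counts, had 6444 and 5527 (limma adjusted p 0.0601).

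Among 26 genes for ligands of these receptors or for enzymes that make or clear them, 15 were higher (57.7%), 1 was lower (3.85%) and 10 were not called, with a median of 0.99. Over all genes, 23.6% were higher and 22.9% lower. Among the 15, Cx3cl1, Ccl7 and Ptges reached the table's read minimum only with inhibitor and could hardly have been called lower. The Ccr2 ligand Ccl2 rose from a mean of 16.9 to 417 and Ccl9, a Ccr1 ligand, from 3940 to 11418. Anxa1, an agonist of formyl peptide receptors, rose from 448 to 2202, and Ccl6 from 68.9 to 373. C3, the source of the C3ar1 ligand, had 52.2, 111 and 56.9 in DMSO and 304, 343 and 330 with inhibitor (limma adjusted p 1.98e-05). The single gene that fell was Ptges2, a prostaglandin E synthase, from 288 to 215. This list was drawn up with results of these data known and is no independent support for the receptors. Of 23 G protein-coupled receptors whose symbols fall outside the stems, 8 were higher (34.8%) and 3 lower (13.0%), beside 23.6% and 22.9% over all genes. The count of 3 lower was 1 without DMSO library 2, inhibitor library 1 or inhibitor library 2. Among the called genes, Gprc5b and Mrgpre reached the read minimum only with inhibitor and Ffar2 only in DMSO. Calcrl rose from a mean of 573 to 1415, the prostacyclin receptor Ptgir from 26.1 to 113 and Celsr3 from 12.9 to 39.4.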

How the data were processed

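RNA was polyA-selected and libraries were made with a stranded kit, per the labels' protocols. Per the submitters' processing notes, the build was mm10 and the tools were TopHat2 (version 2.0.10), HTSeq (0.6.0), DESeq (1.16.0) and CASAVA (1.8.2), with no roles stated. No source used here names the annotation or the strand setting. The deposited values are gene counts that the authors divided by size factors (a normalized signal, not whole counts). Whole reads were recovered from them: 100% of values came out whole within 1e-06. Depth was 11335948 to 19197912 reads per library, which leaves low receptors with few reads. The table had 0 value columns of other samples.

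Differences were tested with limma 3.58.1 (R 4.3.3), limma-trend on log2(value + 1), with 4 residual degrees of freedom, two-sided, Benjamini-Hochberg adjustment over 11644 genes and a threshold of 0.05. On recovered reads, edgeR 4.0.16 called 2593 genes higher and 2819 lower, against 2753 and 2665 with limma; DESeq2 1.42.0 was a further alternative. The alternatives were other tools, scalings, pseudocounts and filters, the replicate number as a block, and each library left out. The fits were tested on simulated data. The exact intervals of the read ratios, given for Fpr2, F2rl2 and Gpr55, all cover counting error only. Intervals of log2 differences come from the limma fit and reflect the spread between libraries.

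Members named with a value in every library were those called with at least a 2-fold change and a mean of at least 20 in the higher group, the most abundant of each family, and those with a mean of at least 500; others are given by value for contrast, and from each pathway list up to 4 called genes with the smallest adjusted p and the most abundant gene. A few genes that this rule picks are not reported here. C3 and Ptges2 were named after their values were seen. Members and gene lists were chosen with earlier results of these data known. Coordinates are from GENCODE M21, which matched all 70 members.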

Additional observations from a re-analysis of the deposited data

How the results depend on the processing

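Limits and settings: with 3 libraries a group, few reads limit the low receptors, and leaving out a library costs degrees of freedom. With genes restricted to a mean of at least 100, which leaves 37 members, 17 were higher, 6 at least 2-fold higher and 3 at least 2-fold lower, and 28 of 91 pathway genes were higher; fewer genes are tested there by construction. Leaving out 1 library in turn gave 25 to 34 members higher and 11 to 14 lower. At least 2-fold higher were 14 to 21 members, and at least 2-fold lower were 5 to 7. The same fits gave 35 to 50 pathway genes higher and 12 to 20 lower. Over all genes they gave 2078 to 2751 higher and 2067 to 2598 lower, against 2753 and 2665 with no library left out. Without inhibitor library 2, 12 members lost their call, and that fit also called the fewest of all genes (2078 higher and 2067 lower). DESeq2 on the recovered reads took the call from 9 members (Adgre5, Adgrl2, Ccr1l1, Ccr6, Gpr137c, Gpr153, Gpr155, Gpr162 and Gpr84, the last with an adjusted p of 0.156), and edgeR from Adgrl2 and Gpr162; the cause was not tested. No member turned direction while called. For the 32 members picked by the naming rule, 462 of their alternative values kept direction and side of the threshold and 7 lost the call, those of Gpr183, Gpr84 and Lpar6. With the replicate number as a block, 36 members were higher and 16 lower, no call was lost and Gpr157, Gpr160, Gpr65, Lpar2 and S1pr1 were added. The numbers share no stated culture or day: deviations of same-numbered libraries correlated at 0.165, 0.0499 and 0.205, and each library correlated best with its own number, a hint from the data and not from the design.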
